A study of Homo sapiens with 42 samples.

Results

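The 44 genes described here encode parts of the autophagy pathway and of the lysosome. They were listed by name for their known roles: 27 act in making the autophagosome or in its control, and 17 are lysosomal membrane proteins, hydrolases, cholesterol carriers and proton pump subunits. Each of the 44 was found among the 18404 genes measured, through 1 entry of the array table, or 2 for ATG2B, for which the entry with the higher mean was kept. The data are transcript levels from 42 Affymetrix arrays of H460, a large-cell lung carcinoma line that the study calls radiosensitive, and H1299, a non-small-cell lung carcinoma line that it calls radioresistant. Growing cultures were given 2 Gy of gamma rays. Each line has 6 arrays labelled 0 h, taken here as unirradiated, and 3 arrays each at 2, 4, 8, 12 and 24 h after irradiation. The labels name them biological replicates. The study asked which genes of the time course are tied to radioresistance. Each kind of response is represented by 1 cell line, so a difference between the lines cannot be told apart from any other difference between H460 and H1299. The labels name unirradiated cells at 0 h and at no later time, and effects of irradiation and of hours in culture therefore cannot be told apart in any change below. The protocol speaks of unirradiated control cells kept for the same times. Whether any of the 0 h arrays held such cells could not be told.

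Autophagy encloses cytoplasm in a double membrane and delivers it to the lysosome. A kinase complex around ULK1 starts the process, a lipid kinase complex around BECN1 marks the site with a phosphoinositide, WIPI and ATG2 proteins bring in lipid, and the ATG conjugation system links ubiquitin-like proteins such as LC3 to the growing membrane, where receptors such as SQSTM1 bind them with their cargo. The lysosome digests the cargo with acid hydrolases under the low pH kept by a proton pump, and the transcription factor TFEB is known to drive many genes of both compartments through a short promoter motif that holds CACGTG.

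Values are log2 array intensities as deposited. A change is the log2 mean at a time (3 arrays) minus that of the line's own 0 h arrays (6), and ± gives the model's standard error. A gene is called where limma's adjusted p (Benjamini-Hochberg over all 18404 genes) is under 0.05, and "rose" and "fell" are used of called genes. The epithelial keratin genes KRT8 and KRT18 had group means between 10.5 and 12.3 in both lines, KRT19 reached 11.1 to 11.9 in H460 and 4.96 to 5.50 in H1299, and EPCAM and CDH1, which also mark epithelium, stayed between 3.34 and 4.25 in both. The leukocyte gene PTPRC was at 2.47 to 2.90 and the fibroblast gene DCN at 2.76 to 3.19, among 5 leukocyte and 6 fibroblast markers measured. Others of these markers were brighter, such as CD68, itself a lysosomal membrane protein, at 8.67 to 9.09 and COL1A1 at 5.97 to 7.17, and no background level was used to read them against. At 24 h in H460, 1 of 6 fibroblast markers (LUM, at 4.40, 5.26 and 4.31 against 3.19 to 4.11 at 0 h) and 1 of 5 leukocyte markers (CD14, at 6.51, 6.46 and 6.60 against 5.68 to 6.08) lay wholly above 0 h and none wholly below. The mean over the fibroblast list went from 5.08 to 5.25 and over the leukocyte list from 4.86 to 4.87, and in H1299 0 markers of either list lay apart from 0 h at 24 h. Arrays differed in width, the interquartile range of their log2 values. In H460 the 0 h arrays had a mean width of 3.34 (SD 0.17, n = 6) and the 2 h arrays one of 2.84 (SD 0.12, n = 3), while the means from 8 to 24 h were 3.64 to 3.67. In H1299 the group means lay between 3.53 and 3.82, and single arrays between 3.24 (at 0 h) and 3.93 (at 12 h). The part of width in the changes was not tested. Counts with width in the model are given with each set of calls it alters, and values of single genes where these are described in full.

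Promoters are shown first for the 7 lysosomal genes whose window holds the CACGTG core, the letters of the motif named above. In H460 at 24 h 6 of them rose, against 16.2% of all genes, and MCOLN1 was called in H460 at no time point. Most of the lysosomal genes not shown here rose at 24 h too, so that count does not set these 7 apart. RefSeq (GRCh38.p14) windows from 250 bases before to 50 bases after the gene start were available for 36 of the 44 genes and not for ATP6V1A, RB1CC1, UVRAG, ATP6V1H, CTSB, LAMP2, HEXA and ATG4D. The stretches run 5′ to 3′ on the gene's strand and end 1 base before the start, except for NEU1, which ends 51 bases before it. Capitals mark each CACGTG. LAMP1 lies at chr13:113297039-113297238 (plus strand), GAA at chr17:80101481-80101580 (plus), MCOLN1 at chr19:7522524-7522623 (plus), CTSA at chr20:45891235-45891334 (plus), ATP6V0D1 at chr16:67481158-67481257 (minus), CTSD at chr11:1763928-1764027 (minus) and NEU1 at chr6:31862872-31862971 (minus).
LAMP1: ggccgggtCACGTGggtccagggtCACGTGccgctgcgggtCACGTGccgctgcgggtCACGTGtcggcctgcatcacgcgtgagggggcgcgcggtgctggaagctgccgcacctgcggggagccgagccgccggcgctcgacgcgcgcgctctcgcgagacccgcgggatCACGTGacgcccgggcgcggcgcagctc
GAA: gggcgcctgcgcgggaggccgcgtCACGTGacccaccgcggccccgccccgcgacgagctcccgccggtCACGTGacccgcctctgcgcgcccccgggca
MCOLN1: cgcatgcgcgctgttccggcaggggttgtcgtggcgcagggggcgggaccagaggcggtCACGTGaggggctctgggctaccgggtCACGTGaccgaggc
CTSA: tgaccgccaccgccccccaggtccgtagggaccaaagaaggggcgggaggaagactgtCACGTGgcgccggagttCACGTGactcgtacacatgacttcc
ATP6V0D1: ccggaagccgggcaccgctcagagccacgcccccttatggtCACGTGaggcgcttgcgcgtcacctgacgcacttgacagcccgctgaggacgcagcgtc
CTSD: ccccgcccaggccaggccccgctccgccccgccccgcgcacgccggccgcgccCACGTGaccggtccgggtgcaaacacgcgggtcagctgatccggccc
NEU1: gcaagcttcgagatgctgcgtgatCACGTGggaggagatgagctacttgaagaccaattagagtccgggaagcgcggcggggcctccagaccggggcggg
The motif TCACGTGA, which reads the same on both strands and contains CACGTG, was in the window of 6 of 36 genes (16.7%): LAMP1, GAA, MCOLN1, CTSA, ATP6V0D1 and ATG3. It was in 8.74% of the 103 other genes of the pathway with a window, a list described further on, and in 1.18% of all 27305 genes with one. The shorter CACGTG, also its own reverse complement, was in 9 of the 36 (25%), with NEU1, CTSD and ATG14 beside those 6, against 21.4% of the other pathway genes and 8.77% of all genes. LAMP1 stood out in this set with 4 copies between 192 and 142 bases before the start, 1 at 28 bases and 1 that spans the start and so is not in the stretch shown. At 24 h in H460 the genes with CACGTG had a median change of 0.52 and 6 of 9 rose, while those with a window and no CACGTG had a median of 0.40 and 17 of 27 rose. Of all genes tested, 16.2% were called higher then. Lysosomal genes made up a larger part of the genes with CACGTG than of those without. A link between the motif and the rise was not tested. A match describes the letters of the window and is no evidence of a bound factor.

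TFEB itself (row 8126312) was not called at any time point in either line. Its level in H460 ran from 5.30 to 5.57 over the 0 h arrays (median 5.47), was 4.98, 5.17 and 5.22 at 12 h, and 5.03, 5.31 and 5.43 at 24 h. All 12 h arrays lay below all 0 h arrays, but the change of -0.33 ± 0.14 had an adjusted p of 0.0611 (limma), while the H460 time course as a whole was called. That 12 h change was called without the narrow arrays (adjusted p = 0.0415), without H460 0 h replicate 6 (0.0404), 2 h replicate 2 (0.0456) or 3 (0.0483) or 4 h replicate 1 (0.0446). In H1299 TFEB lay between 4.84 and 5.42 at 0 h (median 5.00) and was 5.11, 4.90 and 4.43 at 8 h, its largest difference, with arrays that overlapped (-0.26 ± 0.14, adjusted p = 0.17). Once array width was a covariate, that change was 0.05, the other way.

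In H460 the number of lysosomal genes that rose grew over time. Of the 17, 7 rose at 8 h, 13 at 12 h and 15 at 24 h, and 0 fell at these times. Of all genes, 10.7%, 16.7% and 16.2% were called higher at these times, and 6.22%, 16.8% and 12.4% lower. The 8 h count over all 44 genes ran from 4 to 21 when 1 array was left out. At 24 h the median change of the 17 in H460 was 0.60. In H1299 1 of them rose and 1 fell at that time, against 8.53% and 3.21% of all genes. Over all 44 genes, 29 rose in H460 at 24 h and 0 fell, against 16.2% of all genes higher and 12.4% lower, and at unadjusted p under 0.05 limma gave 33 higher and 0 lower. The median change was 0.45, against -0.05 over all genes tested. With array width in the model NEU1 alone of the 12 genes that rose at 8 h was still called, CTSD, CTSZ and NEU1 of the 28 at 12 h, and CTSA, CTSD, CTSL, CTSZ, GAA, GABARAPL1, HEXA, NBR1, NEU1 and WIPI1 of the 29 at 24 h. Every other rise of the 44 genes in H460 at these times lost its call in that model, with adjusted p of 0.0543 to 0.918 at 24 h. That fit separates width from time poorly at these times. The H460 arrays at 12 h (widths of 3.6283 to 3.7258) were all wider than those at 0 h (3.1429 to 3.6280). Widths at 8 h (3.62 to 3.66) and 24 h (3.59 to 3.73) met the 0 h range only near its top. RNA came from whole cultures, so more RNA per cell and more cells of a high-expressing state cannot be told apart.

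**Figure D1:**
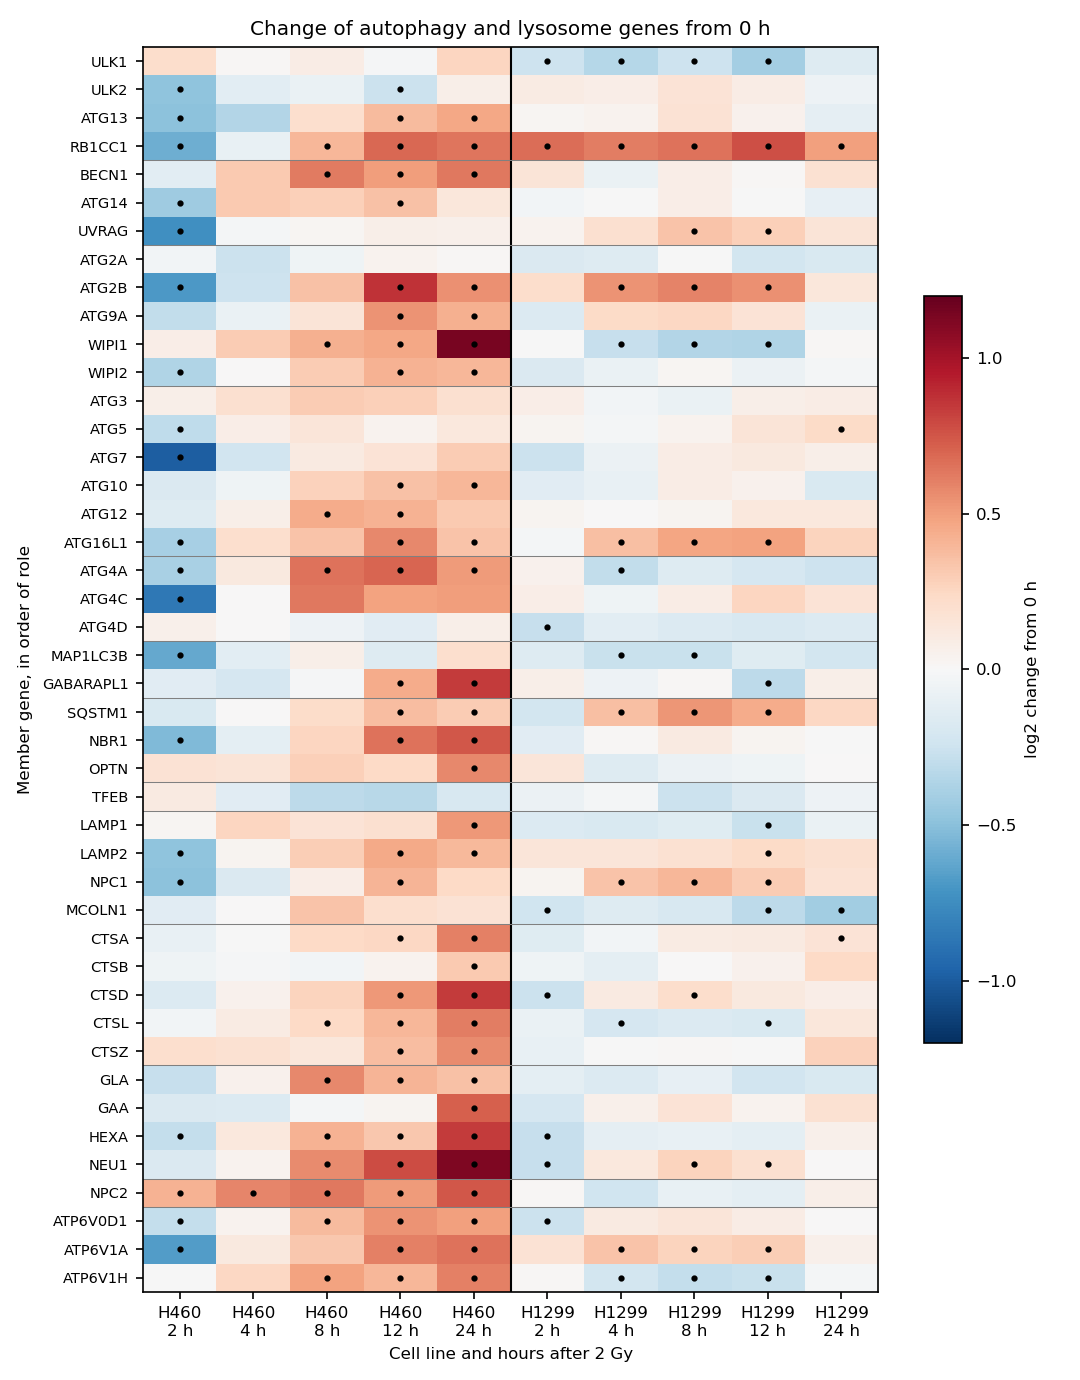
Log2 change from 0 h (colour, scale at right) of the 44 genes (vertical axis, grouped by role) at 2, 4, 8, 12 and 24 h in H460 (left of the black line) and H1299 (right); dots mark limma adjusted p under 0.05 over all genes. The H460 columns turn from mostly blue at 2 h to mostly red at 12 and 24 h, where 28 and 29 genes rose, and the H1299 columns at 24 h hold 3 genes that rose and 1 that fell.

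The 4 glycosidases, which cut sugars from glycoproteins and glycolipids, all rose in H460 at 24 h. NEU1, the lysosomal sialidase (row 8179851), was between 7.66 and 7.93 at 0 h (median 7.80) and at 8.90, 8.96 and 8.94 at 24 h. The 24 h arrays lay far above those at 0 h and above the 12 h arrays, which gave 8.63, 8.63 and 8.54. NEU1 rose by 0.57 ± 0.09 at 8 h and 0.79 ± 0.09 at 12 h, and its 24 h rise was 1.12 ± 0.09 (2.17-fold, limma adjusted p = 1.64e-09). HEXA, the alpha subunit of beta-hexosaminidase (row 7990211), was between 7.13 and 7.75 at 0 h (median 7.34) and at 8.13, 8.39 and 8.16 at 24 h. The groups did not overlap, and HEXA rose by 0.84 ± 0.11 (1.78-fold, adjusted p = 3.75e-06). GAA, the acid alpha-glucosidase that breaks down glycogen, was between 6.08 and 6.53 at 0 h and at 6.84, 7.0 and 6.97 at 24 h. It moved late: its change was 0.03 ± 0.13 at 12 h and 0.72 ± 0.13 at 24 h (adjusted p = 0.000282). GLA, the alpha-galactosidase that acts on globotriaosylceramide, moved early, with 10.48, 10.50 and 10.43 at 8 h against 9.70 to 10.40 at 0 h. It rose by 0.57 ± 0.12 at 8 h and 0.35 ± 0.12 at 24 h, where the arrays overlapped those at 0 h; with array width in the model these changes were 0.19 and -0.04.

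Each of the 5 genes of lysosomal proteases and their protective protein rose in H460 at 24 h. CTSD, the aspartic protease cathepsin D (row 7945666), was between 9.80 and 10.41 at 0 h (median 9.98), at 10.58, 10.63 and 10.43 at 12 h and at 10.86, 10.87 and 10.88 at 24 h. The 3 arrays at 24 h agreed closely and lay above every earlier H460 array. CTSD rose by 0.52 ± 0.11 at 12 h and 0.84 ± 0.11 at 24 h (1.79-fold, limma adjusted p = 1.47e-06). CTSL, a cysteine protease, was between 11.38 and 11.77 at 0 h and at 12.12, 12.19 and 12.07 at 24 h (0.62 ± 0.08, adjusted p = 2.53e-06). CTSA, which protects NEU1 and beta-galactosidase in a complex, was between 9.60 and 9.94 at 0 h and at 10.35, 10.32 and 10.35 at 24 h (0.60 ± 0.09, adjusted p = 1.37e-05). CTSZ, a carboxypeptidase, rose by 0.56 ± 0.11, and CTSB, another cysteine protease, by 0.32 with arrays of 8.91, 8.82 and 8.79 against 8.23 to 8.64.

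NPC2, which binds cholesterol inside the lysosome and hands it to NPC1 (row 7980146), was called higher in H460 from 2 h on. The 2 h call was lost with array width in the model and with a block for the replicate number. The 4 h call was lost after quantile normalization (limma adjusted p = 0.0619) and with that block (0.107). The 0 h arrays of NPC2 ran from 7.23 to 8.45 (median 8.09), with 8.67, 8.17 and 8.48 at 2 h and 8.54, 8.79 and 8.50 at 4 h. The lowest 0 h array was replicate 1, and the next lowest was at 8.02. The arrays at 24 h gave 8.83, 8.82 and 8.68. The 4 and 24 h arrays lay above all 0 h arrays, and 1 of the 2 h arrays lay among them. NPC2 rose by 0.58 ± 0.16 at 4 h (adjusted p = 0.0492) and 0.75 ± 0.16 at 24 h (adjusted p = 0.00135, but 0.0751 with a change of 0.67 once array width was a covariate). It was the single gene of the 44 called at 4 h, where limma called 1 higher and 0 lower (5 and 2 at unadjusted p under 0.05) against 1.37% and 1.55% of all genes. That count was 0 without H460 0 h replicate 4 or 5, 4 h replicate 1 or 3, or any of the 8, 12 or 24 h arrays, and 2 without 0 h replicate 6.

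Among the lysosomal membrane proteins, LAMP1 and LAMP2, the most abundant glycoproteins of that membrane, rose in H460 at 24 h, and NPC1 and MCOLN1 did not pass the test. LAMP1 (row 7970287) was between 8.16 and 8.62 at 0 h (median 8.44) and at 8.87, 8.93 and 8.98 at 24 h. The groups did not overlap, and LAMP1 rose by 0.52 ± 0.12 (1.43-fold, adjusted p = 0.00161, but 0.0795 with a change of 0.46 once array width was a covariate). LAMP2 was between 8.93 and 9.51 at 0 h and at 9.63, 9.61 and 9.46 at 24 h, with 1 array inside the 0 h range. NPC1, the cholesterol exporter, was at 8.46, 8.65 and 8.45 at 12 h against 7.94 to 8.26 at 0 h and rose by 0.41 ± 0.09 then (adjusted p = 0.00218). MCOLN1, the calcium channel of the lysosome, changed by 0.17 ± 0.13 at 24 h (adjusted p = 0.305).

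All 3 subunits of the vacuolar proton pump rose in H460 at 12 and 24 h. ATP6V1A, the catalytic subunit, was between 8.77 and 8.95 at 0 h and at 9.50, 9.55 and 9.45 at 24 h, a rise of 0.65 (adjusted p = 0.00097). ATP6V1H, a regulatory subunit, was between 6.56 and 7.40 at 0 h and at 7.73, 7.75 and 7.64 at 24 h, and ATP6V0D1, of the membrane part, went from 9.51 to 9.88 at 0 h to 10.20, 10.16 and 10.16. They rose by 0.60 and 0.50, and in all 3 genes the 24 h arrays lay above those at 0 h.

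**Figure D2:**
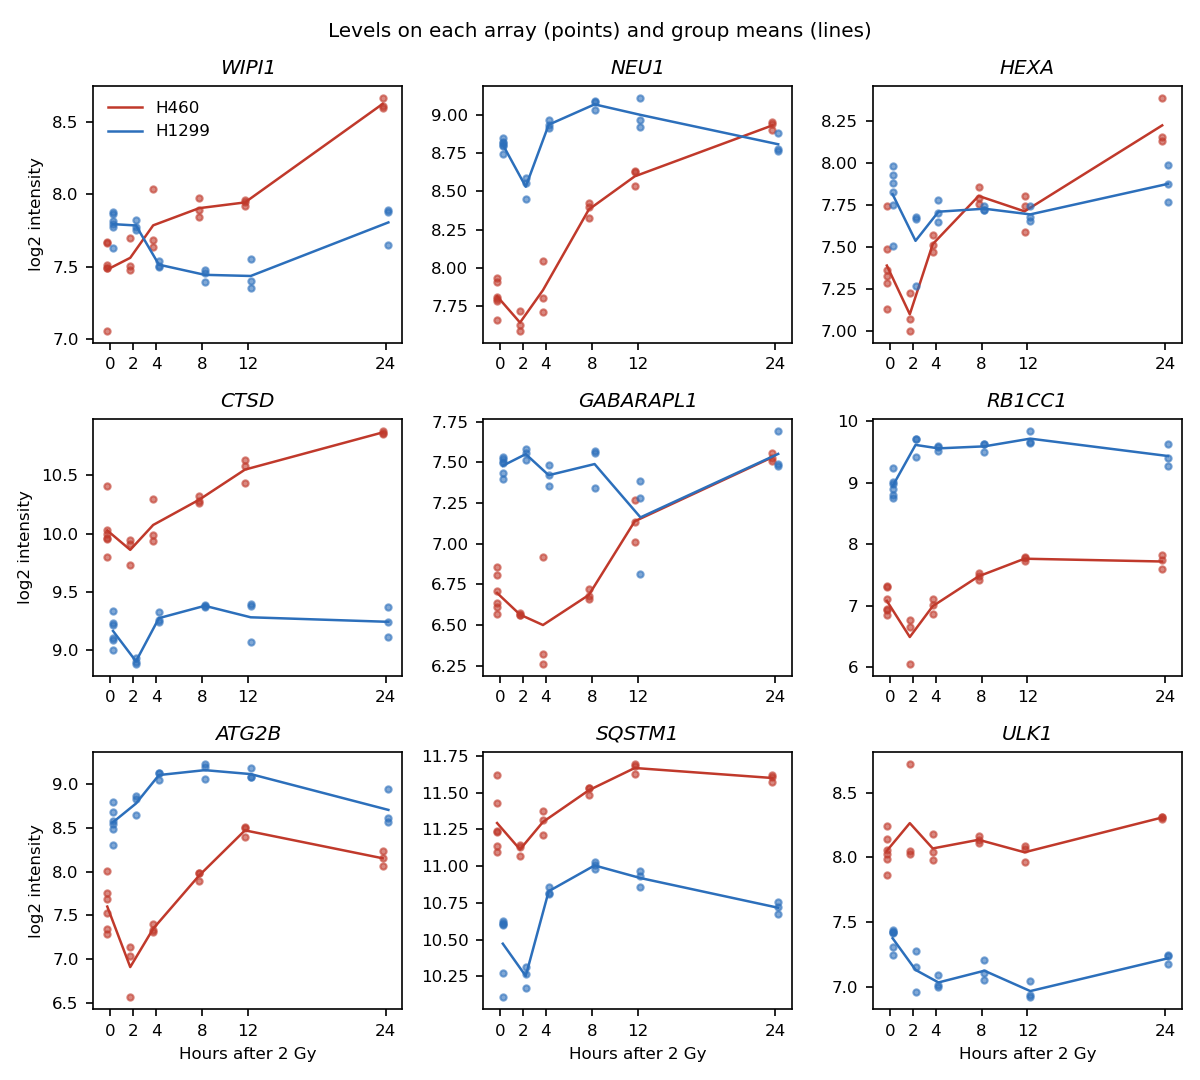
Log2 intensity (vertical axis) on each array (points) with group means (lines) against hours after 2 Gy (horizontal axis) for 9 of the 44 genes, H460 in red and H1299 in blue; 6 arrays at 0 h and 3 at other times. WIPI1, NEU1, HEXA and CTSD climb in H460 to 24 h, where their arrays lie above all H460 arrays at 0 h, while RB1CC1, ATG2B and SQSTM1 have raised points in both lines.

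In the autophagy machinery 14 of 27 genes rose and 0 fell in H460 at 24 h, against 16.2% and 12.4% of all genes. The median change of the 27 was 0.34. With array width in the model GABARAPL1, NBR1 and WIPI1 alone of them kept the call. Differences between the steps were not tested. The strongest rise was in WIPI1, which binds the phosphoinositide of the growing membrane (row 8017850). Its H460 arrays were between 7.06 and 7.67 at 0 h (median 7.50), at 7.96, 7.92 and 7.95 at 12 h, and at 8.61, 8.67 and 8.60 at 24 h. Even the lowest 24 h array lay clear of the highest earlier one of 8.04, at 4 h. WIPI1 rose by 0.46 ± 0.12 at 12 h and 1.14 ± 0.12 at 24 h (2.21-fold, limma adjusted p = 7.07e-08). Its partner gene WIPI2 rose by 0.40 at 24 h, and of the lipid supply genes ATG2B (a lipid transfer protein) and ATG9A (a scramblase in seed vesicles) rose, by 0.55 and 0.43, while ATG2A changed by 0.01 (adjusted p = 0.94).

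GABARAPL1, one of the ubiquitin-like proteins that coat the membrane (row 7953943), was between 6.57 and 6.86 at 0 h in H460 (median 6.67) and at 7.56, 7.53 and 7.51 at 24 h. It rose by 0.44 ± 0.12 at 12 h and 0.83 ± 0.12 at 24 h (1.78-fold, adjusted p = 8.8e-06). The other gene of this kind, MAP1LC3B, which encodes the common autophagosome marker LC3B (row 7997740), did not rise at any time point in either line. Its H460 arrays ran from 5.14 to 6.02 at 0 h (median 5.64) and gave 6.0, 5.81 and 5.59 at 24 h, all within that range (0.20 ± 0.17, adjusted p = 0.382).

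The 3 cargo receptors, which tie ubiquitinated cargo to the membrane, rose in H460 at 24 h. NBR1 was between 7.50 and 8.16 at 0 h and at 8.37, 8.73 and 8.54 at 24 h (0.74 ± 0.12, adjusted p = 6.43e-05). OPTN was between 6.60 and 7.21 at 0 h and at 7.51, 7.48 and 7.54 at 24 h, a rise of 0.58. SQSTM1 (row 8110569) was between 11.10 and 11.62 at 0 h (median 11.23), at 11.68, 11.63 and 11.69 at 12 h and at 11.61, 11.57 and 11.62 at 24 h. The 12 h arrays lay just above the highest 0 h array. SQSTM1 rose by 0.37 ± 0.09 at 12 h (adjusted p = 0.00318, but 0.0547 after quantile normalization and 0.263, with a change of 0.28, with array width in the model) and 0.31 ± 0.09 at 24 h.

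Of the initiation complex, the scaffold RB1CC1 and the regulatory subunit ATG13 rose in H460 at 24 h, by 0.64 and 0.47, while the kinase genes ULK1 and ULK2 did not. ULK1 (row 7959957) was between 7.86 and 8.24 at 0 h in H460 (median 8.04) and at 8.30, 8.31 and 8.31 at 24 h. These arrays lay above the 0 h range, but the change of 0.26 ± 0.12 had an adjusted p of 0.103 (limma), against 0.021 without the narrow arrays and 0.0212 without H460 2 h replicate 3, whose ULK1 value of 8.72 stood apart from 8.05 and 8.03 on the other 2 h arrays. In the lipid kinase complex BECN1, its core regulator, was between 7.35 and 8.08 at 0 h and at 8.32, 8.36 and 8.36 at 24 h, a rise of 0.64, while ATG14 and UVRAG, which direct the complex to its membranes, changed by 0.14 and 0.06 and were not called.

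Of the 6 conjugation genes, ATG10, which joins ATG12 to ATG5, and ATG16L1, which brings that pair to the membrane, rose at 24 h in H460, by 0.40 and 0.34. ATG3, ATG5, ATG7 and ATG12 were not called then, with changes of 0.13 to 0.31. Of the ATG4 proteases, which trim LC3 and its relatives, ATG4A rose by 0.51 at 24 h after 7.76, 7.84 and 7.75 at 8 h and 7.79, 7.89 and 7.81 at 12 h against 6.79 to 7.47 at 0 h. ATG4C and ATG4D were not called at 24 h. No call was made for ULK1, ATG2A, ATG3, ATG4D, TFEB or MCOLN1 in H460 at any time point.

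At 12 h in H460, 28 of the 44 genes rose and 1 fell (ULK2, by 0.26), against 16.7% and 16.8% of all genes. After quantile normalization 16 rose and 1 fell, and with array width in the model 3 rose and 0 fell. The count called at 12 h was 19 without 12 h replicate 2. ATG2B (row 7981192) had its peak there, with 8.51, 8.40 and 8.50 against 7.28 to 8.00 at 0 h (median 7.61). It rose by 0.87 ± 0.13 (1.83-fold, adjusted p = 4.29e-05, but 0.0587 with a change of 0.61 once array width was a covariate). At 8 h, 12 rose and 0 fell (limma; 27 and 1 at unadjusted p under 0.05), against 10.7% and 6.22% of all genes. After quantile normalization 4 rose and 0 fell, and with array width in the model 1 rose and 0 fell. The count moved to 4, 7 and 5 without 8 h replicates 1, 2 and 3, to 21 without 0 h replicate 6 and to 20 without 2 h replicate 3. Comparisons of a line with 0 h share the 0 h arrays. By quadratic regression over hours, the study's stated analysis, 34 of the 44 genes had a time course in H460, against 41.9% of all genes; the count was 22 after quantile normalization and 15 with array width in the model.

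**Figure D3:**
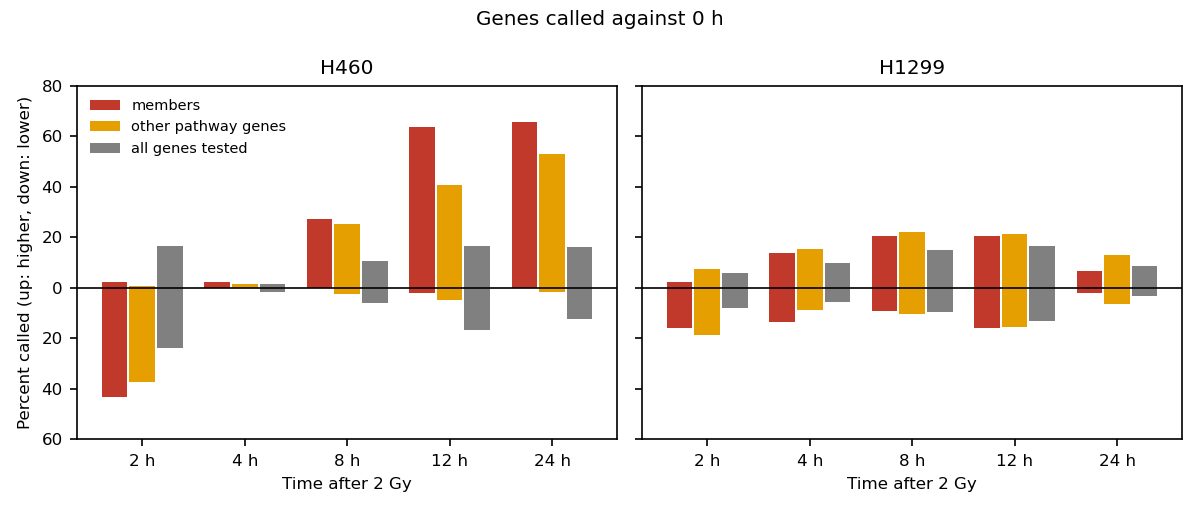
Percent of genes called higher (upward bars) and lower (downward bars) than at 0 h by limma (vertical axis) at each time (horizontal axis) in H460 and H1299, for the 44 genes (red), 123 other genes of the pathway (orange) and all 18404 genes tested (grey). In H460 at 24 h, 29 of 44, 65 of 123 and 16.2% of all genes were higher, and in H1299 3 of 44, 16 of 123 and 8.53%.

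The lower values at 2 h in H460 came with the narrowest arrays. There 1 of the 44 genes rose and 19 fell, against 16.7% and 23.7% of all genes. After quantile normalization 6 rose and 9 fell, and with array width in the model limma called 0 in either direction (5 higher and 0 lower at unadjusted p under 0.05), a fit that cannot separate width from time at 2 h. Without 2 h replicate 3 the count called was 11. ATG7, the enzyme that activates LC3 and ATG12 for conjugation (row 8077858), was between 7.36 and 8.14 at 0 h (median 7.82) and at 6.84, 7.18 and 6.34 at 2 h. It fell by 0.99 on the log2 scale (SE 0.15, adjusted p = 8.35e-05, but 0.743 with a change of -0.34 once array width was a covariate). MAP1LC3B gave 5.30, 4.82 and 4.83 at 2 h, of which 1 lay within the 0 h range (-0.62 ± 0.17, adjusted p = 0.0058). Once width was a covariate the change was -0.58 and that p 0.648, and with 0 h arrays 4 to 6 alone the p was 0.0923.

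In H1299 the calls ran in both directions and left few at the last time point. Over all genes, too, fewer were called at 24 h than at 12 h, where the shares were 16.6% higher and 13.1% lower. At 24 h, 3 rose (RB1CC1, CTSA and ATG5) and 1 fell (MCOLN1), against 8.53% and 3.21% of all genes. The median change was 0.06. That count was 2 without 24 h replicate 1, and the split was 1 and 4 after quantile normalization, 1 and 1 after median centring and 5 and 4 with array width in the model. MCOLN1 (row 8025183) was between 8.23 and 8.52 at 0 h (median 8.35) and at 7.90, 7.94 and 7.99 at 24 h. The groups did not overlap, and MCOLN1 fell by 0.42 (SE 0.08, limma adjusted p = 0.000761). NEU1, HEXA and WIPI1, whose H460 changes at 24 h were large, had changes of 0.00, 0.06 and 0.01 in H1299.

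At 12 h in H1299, 9 genes rose and 7 fell, against 16.6% and 13.1% of all genes (8 and 12 after quantile normalization, 5 and 10 with array width in the model). RB1CC1, the scaffold of the ULK complex (row 8150757), rose at every time point. It was between 8.75 and 9.24 at 0 h (median 8.93), at 9.42, 9.72 and 9.72 at 2 h and at 9.65, 9.85 and 9.66 at 12 h. All of these arrays lay above those at 0 h, and the rise at 12 h was 0.77 ± 0.09 (1.71-fold, adjusted p = 7.79e-07). ATG16L1 was between 6.43 and 6.87 at 0 h (median 6.84) and at 7.19, 7.28 and 7.19 at 12 h (0.48 ± 0.10, adjusted p = 0.000546). Its H1299 arrays at 12 h lay above all those at 0 h.

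WIPI1 and ULK1 fell at 12 h in H1299. WIPI1 was between 7.63 and 7.88 at 0 h (median 7.81) and at 7.40, 7.36 and 7.55 at 12 h (-0.36 ± 0.07, adjusted p = 0.000405). By 24 h it was at 7.88, 7.89 and 7.65, within the 0 h range but for the highest array. ULK1 was between 7.24 and 7.44 at 0 h (median 7.42) and at 6.94, 6.92 and 7.05 at 12 h (-0.41 ± 0.07, adjusted p = 0.000173). LAMP1 was at 7.74, 7.68 and 7.89 at 12 h against 7.95 to 8.14 at 0 h (-0.27 ± 0.07, adjusted p = 0.00469, but 0.0517 without 12 h replicate 2).

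At 8 h in H1299, 9 genes rose and 4 fell, against 15% and 9.54% of all genes (8 and 8 after quantile normalization, 6 and 5 with array width). SQSTM1 was between 10.11 and 10.63 at 0 h (median 10.60) and at 10.98, 11.01 and 11.02 at 8 h. Those arrays were tight and above the 0 h range, and SQSTM1 rose by 0.53 ± 0.09 (1.45-fold, adjusted p = 6.67e-05). ATG2B rose by 0.59 ± 0.09, to 9.06, 9.19 and 9.23 from 8.30 to 8.80 (adjusted p = 2.68e-05). NPC1 was between 8.03 and 8.53 at 0 h (median 8.38) and at 8.74, 8.66 and 8.82 at 8 h (0.39 ± 0.09, adjusted p = 0.00163, but 0.0888 with a change of 0.19 once array width was a covariate).

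RB1CC1 apart, which rose by 0.67 ± 0.09 at 2 h and 0.61 ± 0.09 at 4 h, the called changes in H1299 lay between -0.28 and -0.24 at 2 h and between -0.34 and 0.54 at 4 h. At 4 h, 6 genes rose and 6 fell, against 10% and 5.83% of all genes (6 and 7 with array width in the model). MAP1LC3B, at 5.96, 5.95 and 6.02 against 6.10 to 6.32, was near the threshold (-0.27 ± 0.09, adjusted p = 0.0431) and lost the call without any 1 of several arrays: H1299 0 h replicates 1, 3, 4 or 5, 2 h replicate 2, each of the 4 h arrays, and 12 h replicate 1 (adjusted p of 0.0505 to 0.14). At 2 h, 1 rose and 7 fell, against 5.88% and 7.93% of all genes. Median centring gave 2 and 1, quantile normalization 2 and 5 and array width in the model 4 and 8. That count was 4, 13 and 4 without 0 h replicates 1, 2 and 4, and 5, 4 and 2 without 2 h replicates 1, 2 and 3. CTSD was at 8.88, 8.93 and 8.90 at 2 h against 9.00 to 9.34 at 0 h (-0.26 ± 0.07, adjusted p = 0.0209), and without 2 h replicates 1, 2 or 3 its adjusted p was 0.0552, 0.0538 or 0.0789. By quadratic regression 20 of the 44 genes had a time course in H1299, against 36.5% of all genes.

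The question of the study, how the lines differ, was addressed by testing the H460 change minus the H1299 change over all 42 arrays. At 24 h that difference was called for 24 of the 44 genes, against 12.4% of all genes, and in each of the 24 the H460 change was the higher (limma; 26 higher and 0 lower at unadjusted p under 0.05). The median difference was 0.43, against -0.05 over all genes. These were 13 of the 17 lysosomal genes, including the 4 glycosidases and the 3 pump subunits, and 11 of the 27 autophagy genes. WIPI1 differed by 1.13 ± 0.13 (adjusted p = 5.66e-08) and NEU1 by 1.12 ± 0.10 (adjusted p = 4.45e-11). HEXA, CTSD, GABARAPL1, ATG4A and NBR1 followed, with differences of 0.75 to 0.77. Of the 8 genes that rose in both lines at 12 h, NEU1 and ATP6V1A were among the 24. RB1CC1, SQSTM1, ATG16L1 and NPC1, also of those 8, differed at 24 h by 0.06 to 0.15 and were not called.

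**Figure D4:**
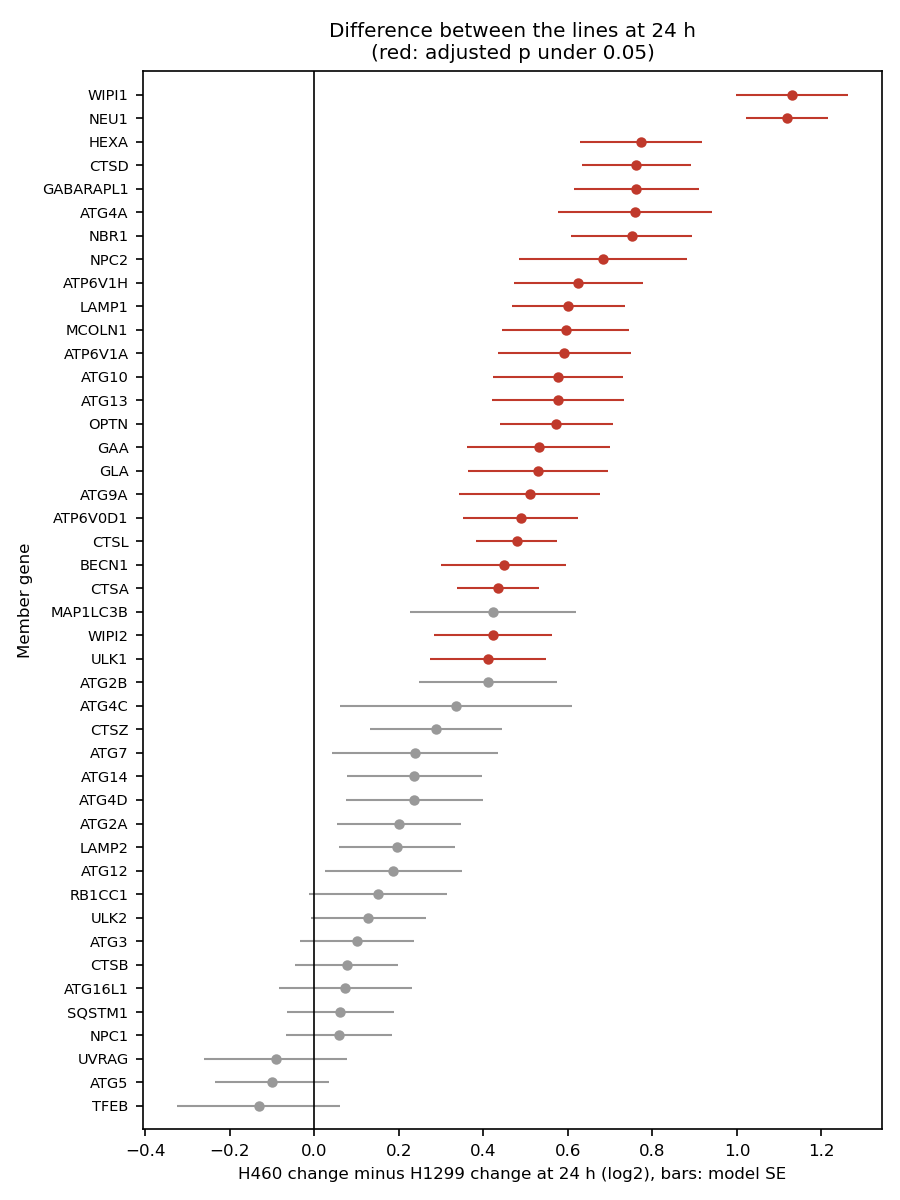
Difference between the lines in the 24 h change, H460 minus H1299 on the log2 scale (horizontal axis), for the 44 genes (vertical axis) with the standard error of the model as bars; red marks limma adjusted p under 0.05. WIPI1 and NEU1 lie highest at 1.13 and 1.12, and the 3 genes below 0 (UVRAG, ATG5 and TFEB) were not called.

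At 12 h the difference was called for 16 genes, all with the higher change in H460, against 8.68% of all genes. With array width in the model 18 were higher and 1 lower. The count was 10 without H460 12 h replicate 1 and 10 without replicate 2. ATG4A differed by 0.90 ± 0.18 (adjusted p = 0.00101): its H1299 arrays at 12 h were 6.73, 6.96 and 6.69 against 6.88 to 7.09 at 0 h, and its H460 arrays had gone up. Genes called in opposite directions at 12 h were ATP6V1H, CTSL, GABARAPL1 and WIPI1, higher in H460 and lower in H1299. Called higher in both lines at 12 h were ATG16L1, ATG2B, ATP6V1A, LAMP2, NEU1, NPC1, RB1CC1 and SQSTM1. At 8 h, 10 differed with the higher change in H460, against 10.1% of all genes (9 higher and 2 lower after quantile normalization, 11 and 2 with array width). At 4 h, 5 were higher and 3 lower, against 8.54% (8 and 3 with array width). The 4 h count was 5 without H460 0 h replicate 1, H460 4 h replicate 2, H1299 0 h replicate 5, or H1299 4 h replicate 1 or 2.

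At 2 h the lines differed in 12 genes, 1 higher and 11 lower in H460, against 28.6% of all genes. Quantile normalization gave 6 and 10 and array width in the model 0 and 3. The count was 19 without H460 2 h replicate 1 and 7 without replicate 3. RB1CC1 fell in H460, to 6.78, 6.65 and 6.05 from 6.86 to 7.32, while it rose in H1299, a difference of -1.26 ± 0.16 (adjusted p = 9.24e-07). ATG2B differed by -0.90 ± 0.16 (adjusted p = 7.14e-05). ATG4C was at 6.75, 6.36 and 5.19 in H460 against 6.19 to 7.59 at 0 h, and differed by -0.94 ± 0.27 (adjusted p = 0.00894). Its lowest array was 2 h replicate 3, and the adjusted p was 0.143 without that array and 0.839, with a difference of -0.12, once array width was a covariate. Over the whole course, by quadratic regression, 24 of the 44 genes differed between the lines, against 16.7% of all genes.

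At 0 h the lines already differed in 36 of the 44 genes, 12 higher and 24 lower in H460, against 26% and 29.1% of all genes. The split was 14 and 20 after quantile normalization and 12 and 21 with array width in the model. The highest differences were in proteases and a glycosidase. CTSL was between 11.38 and 11.77 in H460 and between 9.11 and 9.32 in H1299 at 0 h (2.32 ± 0.07, limma adjusted p = 5.36e-16). GLA was between 9.70 and 10.40 in H460 and between 7.61 and 8.37 in H1299 (1.81 ± 0.12). CTSZ and CTSD were higher in H460 by 1.4 and 0.86, and in these 4 genes no array of one line reached the range of the other. NPC2 was lower in H460, between 7.23 and 8.45 against 9.52 to 10.16 in H1299 (-1.92 ± 0.15, adjusted p = 1.32e-09). RB1CC1 was lower by 1.87 and ATG13 by 1.45, both subunits of the initiation complex, and ATG12, the ubiquitin-like partner of ATG5, by 1.23. NEU1, which rose most among the glycosidases in H460, started there from a lower level than in H1299 (-0.99), and its H460 arrays at 24 h lay above the H1299 arrays at 0 h.

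Beside the 44 genes, 123 of 133 other genes of the pathway were measured. In H460 at 24 h 65 rose and 2 fell, against 16.2% and 12.4% of all genes, with a median change of 0.31 (43 and 2 after quantile normalization, 17 and 1 with array width in the model). By role, 21 of 30 lysosomal enzymes and activators rose, 11 of 16 other membrane and transport genes, 9 of 18 pump genes, 13 of 27 regulators and 11 of 32 autophagy genes. GM2A, the activator that presents ganglioside to hexosaminidase, rose by 1.30 ± 0.12, MANBA, the beta-mannosidase, by 1.15 ± 0.13, and ARSA, the arylsulfatase that cuts sulfatide, went from a mean of 5.73 at 0 h to 6.73 at 24 h (SE 0.13). RRAGD, a GTPase that recruits the mTORC1 kinase to the lysosome, rose by 1.14 ± 0.14. In H1299 at 24 h 16 rose and 8 fell, against 8.53% and 3.21% of all genes (10 and 13 after quantile normalization). The 24 h difference between the lines was called for 37 with the higher change in H460 and for 1, ATG9B, with the lower. Over all genes it was called for 12.4%, both directions together. On the narrow 2 h arrays of H460 1 rose and 46 fell, against 16.7% and 23.7% of all genes. The count was 13 and 16 after quantile normalization and 0 in either direction (limma) with array width in the model. Among those that fell were PIK3C3 and PIK3R4, the catalytic and the scaffold subunit of the lipid kinase complex, by 0.68 and 0.72, and TMEM41B, a lipid scramblase of the endoplasmic reticulum, by 0.63. FNIP1, a partner of folliculin in nutrient signalling, rose by 0.68 ± 0.07 at 8 h in H1299, and ZKSCAN3, a zinc finger factor known as a repressor of autophagy genes, by 0.77 ± 0.14, while MFSD8, a lysosomal membrane protein, rose by 0.56 ± 0.09 at 12 h. EPG5, a tether of autophagosomes to lysosomes, fell by 0.70 at 2 h in H460 and rose by 0.53 at 8 h in H1299. DAPK3, a kinase, fell by 0.60 at 12 h in H1299. At 2 h in H1299 CLN3, a lysosomal membrane protein, fell by 0.42, RPTOR, the substrate-binding subunit of mTORC1, by 0.42 and PLEKHM1, an adaptor for fusion with the lysosome, by 0.41.

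The size of the H460 response depended on how the arrays were scaled. Of the 29 genes that rose at 24 h, 28 also rose after median centring, 19 after quantile normalization and 10 with array width in the model. The median change of the 44 genes was 0.41, 0.31 and 0.28 in turn. The 10 genes still called with array width rose under all 4 scalings, and limma called no gene of the 44 lower under any of them (0 also at unadjusted p under 0.05). At 12 h the counts of genes that rose were 29, 16 and 3 in turn.

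**Figure D5:**
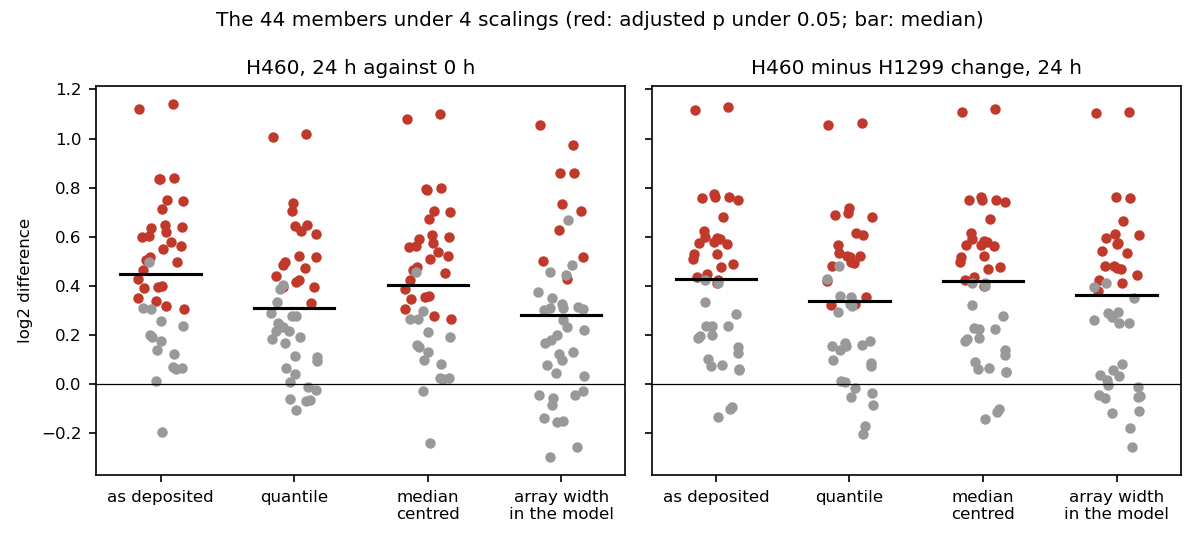
Log2 difference (vertical axis) of each of the 44 genes (points) under 4 scalings (horizontal axis) for H460 at 24 h against 0 h (left) and for the H460 change minus the H1299 change at 24 h (right); red marks limma adjusted p under 0.05 and bars are medians. On the left the red points drop from 29 to 10 with array width in the model. On the right 20 are called in that model, 19 of them among the 24 called as deposited.

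The difference between the lines at 24 h was called for 23, 20 and 20 genes with the higher change in H460 after median centring, after quantile normalization and with array width in the model. Of the 24 genes, 18 were called under all 4 scalings: ATG10, ATG13, ATG4A, ATP6V1A, ATP6V1H, CTSA, CTSD, CTSL, GAA, GABARAPL1, HEXA, LAMP1, MCOLN1, NBR1, NEU1, NPC2, OPTN and WIPI1.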

How the data were processed

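Gene expression was measured on 42 arrays, 21 per cell line. The values deposited by the authors are on a log2 scale (1.45 to 14.2); how the authors normalized them is not given in the sources used here. Per the labels' protocols, target was made by the standard Affymetrix method from total RNA. The table had 32321 entries, of which 19158 had 1 gene symbol, 1388 several and 11775 none in the probe table given. Entries with 1 symbol were used, 1 per gene (the highest mean over all arrays), which gave 18404 genes, with no filter on dim genes. Array medians lay between 5.97 and 6.18, and 0 pairs of arrays were identical. No detection calls were used, and precision is set by how many arrays a group has.

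Changes from 0 h were contrasts in a limma 3.58.1 model (R 4.3.3; lmFit, eBayes with trend) with 1 mean per time point over the 21 arrays of a line. Time courses were tested by quadratic regression on hours (F-test of both time terms), the method the series' design text names. The lines were compared by the interaction over 42 arrays, and at 0 h over 12 arrays. Tests were two-sided, with Benjamini-Hochberg adjustment over all genes and a threshold of 0.05.

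The 44 genes, the list of 133 other pathway genes, the markers, the tests and the other settings were chosen with earlier results of these data known. Named in full were SQSTM1, MAP1LC3B, ULK1, TFEB, LAMP1 and CTSD. To them were added, per line, the 8 genes with the largest called change whose arrays did not overlap those at 0 h, the 6 with the largest called difference between the lines, and at 0 h the 4 with the largest called difference in each direction. Of the other pathway genes, the 4 with the largest called rise and fall in each line, by the same rule on overlap, were named; further genes serve to account for the whole list. Other settings were a filter on dim genes (12269 genes and 43 of the 44 left), eBayes without trend, quantile normalization, median centring, a block for the replicate number, array width (interquartile range) as a covariate, leaving out the narrow arrays (those of H460 at 2 h, and replicate 2 of H1299 at 0 h), 0 h arrays 1 to 3 or 4 to 6 alone, all 42 arrays in 1 fit, the mean of all entries of a gene, 1 mean per time point for the courses, and each array left out in turn. On simulated data with 100 genes changed by 1 (log2) and 100 by 0.5 among 18404, the fit recovered 99 and 58 for H460 at 24 h, 96 and 51 for H1299 at 24 h, and 91 and 33 for the difference at 24 h. The simulated noise was normal and independent between arrays, and held none of the differences in array width seen between groups. The rates of recovery may therefore differ in the data themselves. Promoter windows were RefSeq's (GRCh38.p14, 300 bases).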

Additional observations from a re-analysis of the deposited data

Results flagged for a closer look

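In 88 sets of 6 arrays at 0 h (44 genes in 2 lines), 7 had 1 array far from the other 5 by Dixon's criterion, where chance alone gives such a set about 1 time in 20. In H460 these were WIPI1 at 7.06 and NPC2 at 7.23 on replicate 1, both low, and CTSL at 11.8 and GLA at 10.4 on replicate 6, both high. In H1299 they were ATG9A at 7.03 and CTSA at 10.1 on replicate 2, both low, and ATG3 at 9.62 on replicate 5, high. H1299 0 h replicate 2 is one of the narrow arrays. Counts without each of these arrays are within the ranges given for single arrays left out.

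The time courses of 24 of the 44 genes differed between H460 and H1299 by the quadratic interaction (limma). The largest called difference of each, H460 change minus H1299 change, was at 24 h for most of them. At that time it was 1.13 in WIPI1, 1.12 in NEU1, 0.77 in HEXA, 0.76 in CTSD and GABARAPL1, 0.75 in NBR1, 0.60 in LAMP1, 0.59 in MCOLN1, 0.58 in ATG10, 0.58 in ATG13, 0.57 in OPTN, 0.53 in GAA, 0.51 in ATG9A, 0.49 in ATP6V0D1 and 0.44 in CTSA. At 12 h it was 0.90 in ATG4A, 0.58 in CTSL and 0.49 in WIPI2. At 8 h it was 0.77 in ATP6V1H, 0.67 in GLA and 0.55 in BECN1, and at 4 h 0.83 in NPC2. At 2 h, on the narrow H460 arrays, it was -0.90 in ATG2B and -0.85 in ATP6V1A.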

How the results depend on the processing

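Counts of the 44 genes called stayed within 1.5 times those reported with the filter on dim genes, the mean of all entries and 1 mean per time point. No named result that was called changed its sign. Over all 44 genes, 6 of the 19 called lower in H460 at 2 h (ATG14, ATG16L1, ATG4A, ATG4C, ATP6V0D1 and HEXA), 2 of the 28 called higher at 12 h (ATG12 and GLA) and 1 of the 29 at 24 h (GLA) changed sign with array width in the model, none of them called there; under median centring, quantile normalization and the replicate block 0 did. The other settings moved these counts. Without trend, H460 at 4 h gave 0 and H1299 at 2 h gave 5. Quantile normalization gave 0, 4, 17 and 19 for H460 at 4, 8, 12 and 24 h and 22 for its course. Median centring gave 3 and 2 for H1299 at 2 and 24 h. Array width in the model gave 0, 1, 3 and 10 for H460 at 2, 8, 12 and 24 h, 15 for its course, 9 for H1299 at 24 h and 3 for the difference at 2 h. Without the narrow arrays H460 at 8 h gave 23 and H1299 at 2 h gave 13, H460 at 12 and 24 h gave 32 each and the 24 h difference 25; H460 at 2 h then has no value. With 0 h arrays 1 to 3 alone, H460 at 2 and 4 h gave 13 and 0 and H1299 at 2 h gave 3, and with 4 to 6 alone H460 at 8 h gave 4 and the difference at 4 h gave 5. With all 42 arrays in the fit, H460 at 4 and 8 h gave 3 and 23, and H1299 at 2, 8 and 24 h gave 2, 8 and 2. The cause of these shifts was not tested.

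Correlations between the deviations of same-numbered arrays ran from -0.377 to 0.279 (median -0.0282, over 0.1 in 17 of 90 pairs). Whether the replicate numbers pair the arrays was not tested. The replicate block gave 13 and 0 for H460 at 2 and 4 h, 3 for H1299 at 2 h and 16 for the 24 h difference. It changed the calls of TFEB in H460 at 12 h (adjusted p = 0.0389), of MAP1LC3B in H1299 at 4 h (0.086) and of CTSD in H1299 at 2 h (0.162), and of no other named result.

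Leaving out 1 array gave 11 to 22 for H460 at 2 h, 0 to 2 at 4 h, 4 to 21 at 8 h, 19 to 32 at 12 h and 20 to 32 at 24 h. It gave 2 to 13 for H1299 at 2 h and 2 to 6 at 24 h. For the difference it gave 7 to 19 at 2 h, 5 to 10 at 4 h, 10 to 18 at 12 h and 17 to 25 at 24 h. With 3 arrays per time point, a gene that was not called may still have changed.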

Other observations

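Several other genes of the pathway, singled out after their values were seen, differed between the lines at 24 h as well. SMPD1, the acid sphingomyelinase, had a change of 0.97 in H460 and -0.11 in H1299, a difference of 1.08 ± 0.13 (limma adjusted p = 1.14e-07). FUCA1, the alpha-fucosidase, differed by 0.85 ± 0.15 and LIPA, the acid lipase that frees cholesterol from its esters, by 0.81 ± 0.13. ATP6V1B2, a subunit of the proton pump, differed by 0.88 ± 0.14. DEPTOR, an inhibitor of the mTOR kinase, differed by 0.83 ± 0.23. In each of these the H460 change was the higher.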
